A study of Mus musculus with 2 samples.

Results

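The Hox cluster genes are the 39 genes of the mouse HoxA, HoxB, HoxC and HoxD clusters, taken as every row whose symbol is Hox followed by a cluster letter and a paralogue number. They are 39 of 22558 genes in the deposited tables. Of the members, 11 lie in HoxA on chromosome 6, 10 in HoxB on chromosome 11, 9 in HoxC on chromosome 15 and 9 in HoxD on chromosome 2. The cells came from breast tumours of untreated FVB mice, an inbred strain, and were sorted by flow cytometry. The first library was made from tumour-initiating cells (TIC), the sorted fraction named for its ability to start new tumours. The second was made from non-tumorigenic cells (NTC). With 1 library per group there is no replicate error, no test and no p-value, and each difference given is one between 2 libraries. The sources used here name neither the origin of the tumours, nor the surface markers of the sort, nor the number of animals behind a library.

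Hox genes encode transcription factors that bind DNA through a homeodomain and give cells their position along the body axis. Genes with the same number in different clusters are paralogues, copies of 1 ancestral gene. Within a cluster they lie in numerical order, and in the embryo the low-numbered genes at the 3′ end of the cluster are used earliest and nearest the head. The proteins bind DNA together with cofactors of the Pbx, Meis and Pknox families, and retinoic acid switches on the low-numbered genes first. In the adult mammary gland, Hox genes are known to act in the development of the ducts, and several are known to be expressed in both epithelium and stroma.

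Of the 39 members, 5 carried nearly all of the Hox signal in TIC, namely Hoxb2, Hoxb3, Hoxb4, Hoxd1 and Hoxd8. The homeoboxes of Hoxb2 and Hoxd8, the 180 bases that encode the homeodomain, are shown so that a member of each cluster with signal can be compared. The bases were read from GENCODE M21 transcripts of build GRCm38, and both lie on the plus strand. That of Hoxb2 is in exon 2 at chr11:96352985-96353164, and that of Hoxd8 in exon 2 at chr2:74706525-74706704. Capitals mark the 18 bases that encode the most conserved part of the third helix, which lies in the major groove of DNA.
Hoxb2: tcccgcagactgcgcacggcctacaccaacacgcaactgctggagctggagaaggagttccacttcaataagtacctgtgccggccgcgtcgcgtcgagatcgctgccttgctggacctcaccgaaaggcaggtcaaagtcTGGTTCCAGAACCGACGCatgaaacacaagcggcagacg
Hoxd8: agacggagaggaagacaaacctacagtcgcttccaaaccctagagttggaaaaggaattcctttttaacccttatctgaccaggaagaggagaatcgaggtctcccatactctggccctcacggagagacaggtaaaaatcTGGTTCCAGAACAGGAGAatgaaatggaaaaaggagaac

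Among the homeoboxes of the 5 members, the share of identical bases ran from 54.4% (Hoxd1 with Hoxd8) to 75.0% (Hoxb2 with Hoxb3). The nearest homeobox of any member was that of Hoxa3 for Hoxb3, at 93.9%, and that of Hoxa4 for Hoxb4, at 82.8%. For Hoxb2 it was that of Hoxd3 (77.8%) and for Hoxd8 that of Hoxb8 (80.6%). Over whole transcripts, the longest identical stretch shared with another member was 28 bases for Hoxb2, 47 for Hoxb3, 52 for Hoxb4 and 32 each for Hoxd1 and Hoxd8. How the authors assigned reads that match more than 1 place is not stated in the labels or tables. The nearest paralogues of Hoxb3 and Hoxb4, Hoxa3 and Hoxa4, were listed at 0 in TIC and share a deposited locus. A listed 0 is not read as absence, and whether members shared reads was not tested.

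FPKM corrects the fragments of a gene for transcript length and library depth, so levels can be set side by side between genes. From the steps between low values in short receptor genes, the depth was about 20.99 M mapped fragments in TIC and 21.6 M in NTC, which is a rough estimate. It takes the group of values between 0.035 and 0.065 FPKM × kb as 1 read. That group held 23 of 60 values in TIC and 39 of 68 in NTC, while 7 in TIC and 3 in NTC lay below it and none lay between it and the next group. Had 1 read been worth less than that range, all fragment numbers given here would be too low and their intervals too wide. Multiplying a level by the length of the gene's longest coding transcript then gives the approximate number of fragments behind it. Intervals on these numbers cover counting error only, since PCR copies of a molecule are counted again. An exact 0 is not read as absence, because Ndufs5, a subunit of respiratory complex I that every respiring cell needs, was also listed at 0 in both libraries.

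Most Hox genes were listed at 0. A value above 0 was given for 11 of 39 members in TIC, against 67.4% of all genes, and for 5 of 39 in NTC, against 67.2% of all genes. In both libraries together, 27 of 39 (69.2%) were listed at 0, as were 6158 of all 22558 genes (27.3%). A level of at least 1 FPKM was reached by 4 members in TIC, namely Hoxb2, Hoxb3, Hoxb4 and Hoxd1, where 51.8% of all genes reached it. In NTC it was reached by none of the 39, where 50.0% of all genes reached it. The levels of all members summed to 26.0 FPKM in the TIC library against 1.41 FPKM in NTC, and HoxB held 89.3% of the sum in TIC and 95.7% in NTC.

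**Figure D1:**
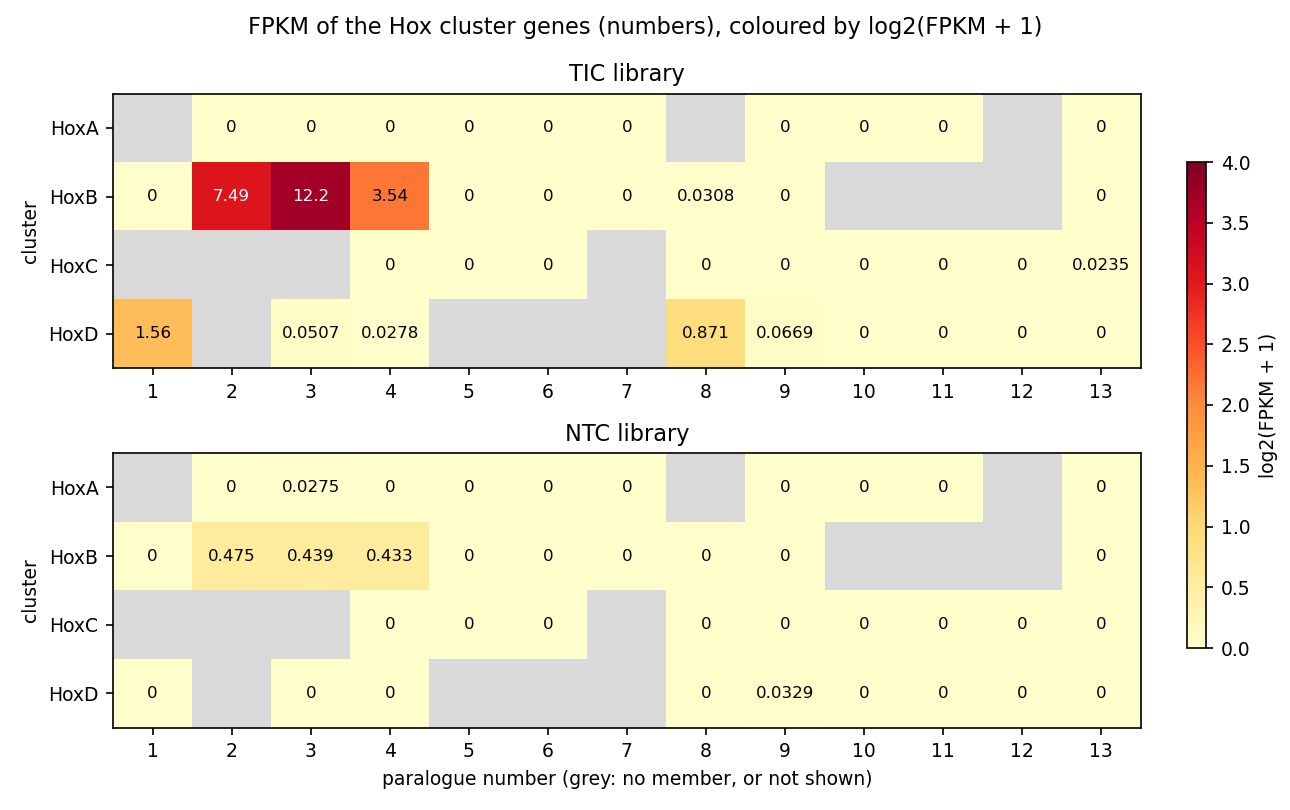
Levels of the Hox cluster genes in the TIC library (upper grid) and the NTC library (lower grid). Rows are clusters, columns are paralogue numbers, the number in a cell is the level in FPKM, the colour is log2(FPKM + 1), and grey marks a number that the cluster lacks or a value that is not shown. Hoxb2, Hoxb3 and Hoxb4 stand side by side in the TIC grid at 7.49, 12.2 and 3.54 FPKM, and no cell of the NTC grid reaches 1 FPKM.

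The HoxB genes with signal were 3 neighbours, Hoxb4, Hoxb3 and Hoxb2, while the genes next to them on either side, Hoxb1 and Hoxb5, were listed at 0, which is not read as absence. Hoxb3, a factor that patterns the hindbrain and the neck in the embryo, was the highest member, with 12.2 FPKM in the TIC library against 0.439 FPKM in NTC. It lies on chromosome 11 at 96184440 to 96209244 in build mm9. About 814 fragments in TIC and 30.3 in NTC stand behind these levels. The ratio of the levels was 27.7 (95% interval 19.4 to 41.7). In TIC, Hoxb3 stood above 76.2% of all genes. In such bulk RNA, fewer cells of a type and less RNA per cell cannot be told apart.

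Hoxb2, which acts in the hindbrain and the facial nerve, had 7.49 FPKM in the TIC library against 0.475 FPKM in NTC (chromosome 11, 96212946 to 96215328). The ratio was 15.8 (95% interval 9.49 to 27.0), resting on about 256 fragments in TIC and 16.7 in NTC. The tables describe Hoxb2 as belonging to several gene identifiers, so its level may combine transcripts of neighbouring genes. Hoxb4, known for promoting the growth of blood stem cells, had 3.54 FPKM in the TIC library against 0.433 FPKM in NTC (chromosome 11, 96179581 to 96182952). Its ratio of 8.16 (95% interval 5.34 to 13.1) was the smallest of the 3, and its interval did not overlap that of Hoxb3. The NTC levels of Hoxb2, Hoxb3 and Hoxb4 lay close together, between 0.433 and 0.475 FPKM, whereas the TIC levels differed among them more widely.

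With 1 FPKM added to each level, which makes differences of low genes look smaller, the log2 ratio of TIC to NTC was 3.19 for Hoxb3, 2.52 for Hoxb2 and 1.66 for Hoxb4. These 3 were the only members with a mean level of 1 FPKM or more over the libraries, and all 3 were higher in TIC by 2-fold or more, where 14.6% of the 12004 genes with such a mean were. They passed that mean through their TIC level alone, so their count and their median of 2.52 (against -0.16 for the 12004 genes) describe them and support nothing. With no filter, 4 of 39 members (Hoxd1 besides these) were higher in TIC by 2-fold or more, against 8.50% of all genes, and 0 of 39 were lower by 2-fold or more, against 7.79%. The share of higher members (10.3%) was thus near that of all genes.

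The stretch from the start of Hoxb4 to the end of Hoxb2 spanned 35.7 kb of the 173.9 kb cluster. Hoxb1, the gene that marks 1 segment of the early hindbrain, starts 11.7 kb beyond Hoxb2 and was listed at 0 in both libraries. On the other side, Hoxb5 ends 12.1 kb before Hoxb4 and was also listed at 0 in both. Hoxb6, Hoxb7, Hoxb9 and Hoxb13 were listed at 0 in both libraries. Hoxb8 had 0.0308 FPKM in the TIC library, about 1.70 fragments, with NTC listed at 0. The 3 genes inside the HoxB span that are not Hox genes, Gm53 and the microRNAs Mir196a-1 and Mir10a, were listed at 0 in both.

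**Figure D2:**
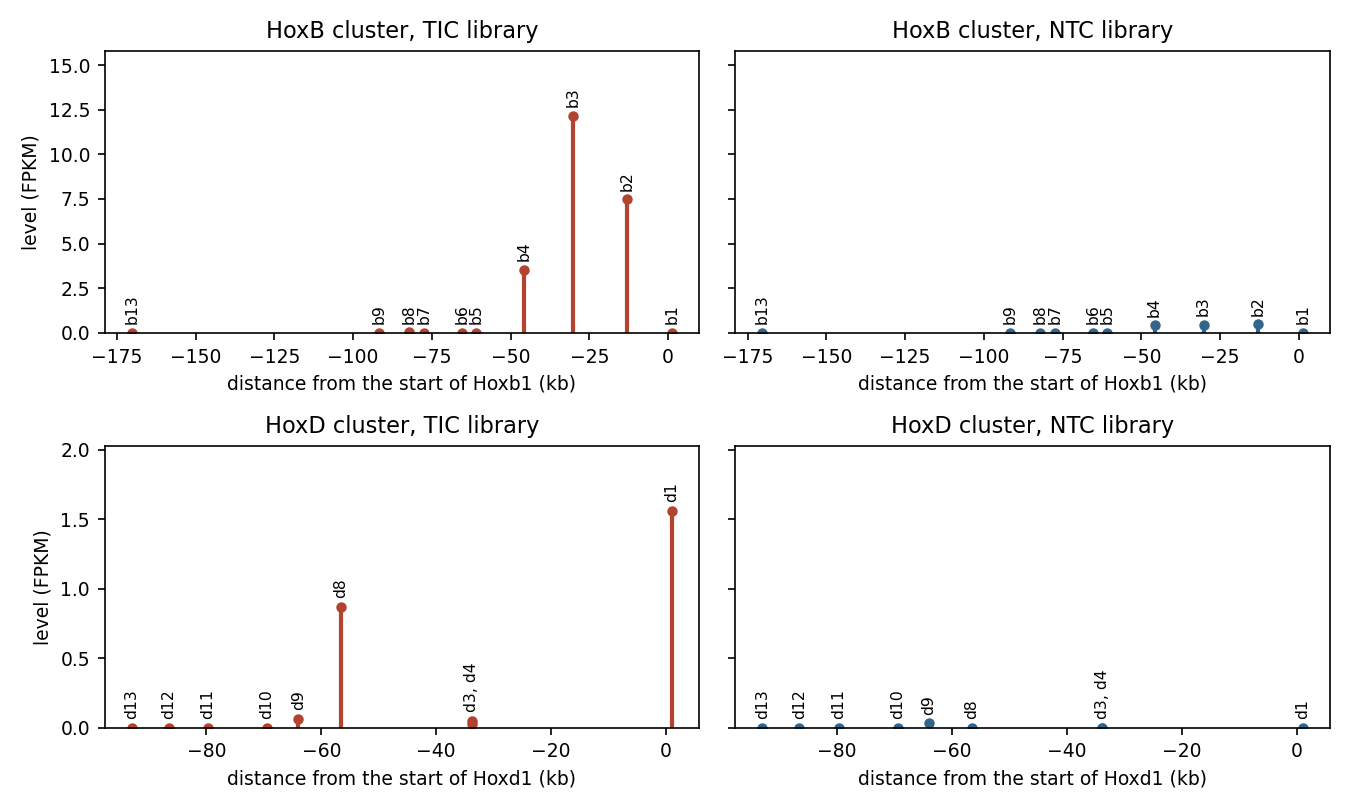
Levels in FPKM (linear axis, the same within a row of panels) of the HoxB genes (upper panels) and HoxD genes (lower panels), in TIC on the left and NTC on the right, against the distance in kb from the start of Hoxb1 or Hoxd1. Each point is the middle of a gene's locus in the deposited tables, and Hoxd3 and Hoxd4 share 1 locus. In TIC the signal of HoxB lies in the neighbours Hoxb4, Hoxb3 and Hoxb2, and that of HoxD in the separated genes Hoxd1 and Hoxd8.

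In HoxD, Hoxd1 and Hoxd8 had values in TIC and were listed at 0 in NTC. Hoxd1, which acts in sensory neurons of the mouse, had 1.56 FPKM in TIC (chromosome 2, 74601037 to 74603199, build mm9), about 61.0 fragments with a 95% interval of 46.7 to 78.4. Hoxd8 had 0.871 FPKM in TIC (chromosome 2, 74543546 to 74545364), about 48.2 fragments with an interval of 35.4 to 63.6. That number used a transcript of 2.634 kb, longer than the deposited Hoxd8 locus of 1.819 kb, so it and its interval are too high. No fold is given for Hoxd1 or Hoxd8, because NTC is listed at 0. Unlike the HoxB genes with signal, these were not neighbours. Between them, Hoxd3 had 0.0507 FPKM and Hoxd4 0.0278 FPKM in TIC, fewer than 4 fragments each, and both were listed at 0 in NTC.

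Hoxd9 was the only HoxD gene with a value in NTC, at 0.0669 FPKM in the TIC library against 0.0329 FPKM in NTC. These rest on fewer than 4 fragments in either library, and the ratio of 2.04 has a 95% interval of 0.177 to 18.5, so no difference was detectable at this depth. Hoxd10, Hoxd11, Hoxd12 and Hoxd13, which pattern limbs and the genital tubercle, were listed at 0 in both libraries. The antisense gene 1700109F18Rik, inside the HoxD span, had 0.127 FPKM in the TIC library, with NTC listed at 0. In RefSeq the symbol 1700109F18Rik is an older name of Hoxd3os1, and the GENCODE gene of that name overlaps Hoxd8 on the other strand.

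Most HoxA and HoxC genes were listed at 0 in both libraries. Hoxa3, which patterns the thymus and the neck, stood at 0 in TIC but at 0.0275 FPKM in NTC, about 1.54 fragments. In HoxA, Hoxa2, Hoxa4, Hoxa5, Hoxa6, Hoxa7, Hoxa9, Hoxa10, Hoxa11 and Hoxa13 were listed at 0 in both libraries. In HoxC, Hoxc13, which acts in hair and nails, had 0.0235 FPKM in the TIC library, about 1.21 fragments, with NTC listed at 0. The other 8 HoxC genes were listed at 0 in both.

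**Figure D3:**
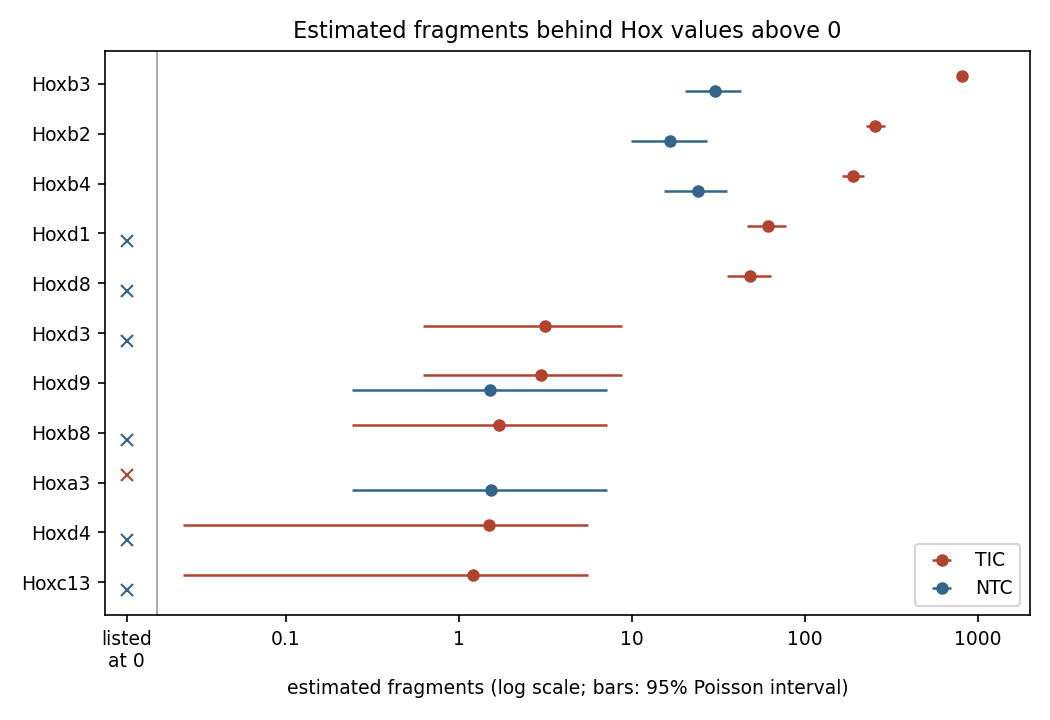
Estimated fragments (log axis) behind members with a value above 0 in either library, in TIC and in NTC. Bars are 95% Poisson intervals on the number rounded to whole fragments, and crosses at the left mark a value listed at 0. Hoxb3, Hoxb2 and Hoxb4 rest on about 814, 256 and 191 fragments in TIC, Hoxd1 and Hoxd8 on 61.0 and 48.2, and the others shown on fewer than 4. The Hoxd8 number is too high, because the transcript used is longer than its deposited locus.

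By paralogue number, the signal lay at the low end. Members numbered 1 to 4 summed to 25.0 FPKM in the TIC library against 1.37 FPKM in NTC, and 7 of these 12 genes had a value above 0 in TIC against 4 of 12 in NTC. Members numbered 5 to 8 summed to 0.902 FPKM in TIC and 0 in NTC, with 2 of 11 above 0 in TIC. Members numbered 9 to 13 summed to 0.0904 FPKM in the TIC library against 0.0329 FPKM in NTC, with 2 of 16 above 0 in TIC and 1 of 16 in NTC. No member of groups 5, 6, 7, 10, 11 and 12 had a value in either library. Within group 3, Hoxb3 stood far above its paralogues in TIC, and within group 1 Hoxd1 had a value while Hoxb1 was listed at 0.

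Summed by cluster, HoxB had 23.2 FPKM in the TIC library against 1.35 FPKM in NTC, a ratio of 17.2. Its 95% interval, 14.4 to 23.6, was taken on the pooled fragments of the cluster, in which longer transcripts weigh more than in summed FPKM. The interval for HoxD was taken in the same way, and it includes the Hoxd8 fragments in TIC, whose number is too high. HoxD had 2.58 FPKM in the TIC library against 0.0329 FPKM in NTC, and that NTC sum is Hoxd9 alone. The ratio of these sums was 78.4 with an interval of 16.3 to 503.1, wide because about 1.52 fragments stand behind the NTC sum. It sets mainly Hoxd1 and Hoxd8 in TIC, both listed at 0 in NTC, against Hoxd9, and is not the fold of any member. HoxC had 0.0235 FPKM in TIC and 0 in NTC.

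Of the 24 nearest genes (3 on either side of each cluster), 13 had a mean level of 1 FPKM or more. Of these 13, 0 were higher in TIC by 2-fold or more and 1 was lower by as much, where 14.6% and 13.8% of all genes with such a mean were. Their log2 ratios ran from -1.37 to 0.59 with a median of -0.43, and 11 were below 0 and 2 above. Calcoco1, beside HoxC, was the highest of them, with 60.6 FPKM in the TIC library against 39.8 FPKM in NTC. Skap2, an adaptor protein beside HoxA, was the lowest of them, with 11.4 FPKM in the TIC library against 31.1 FPKM in NTC. Beside HoxB, Atp5g1 of ATP synthase had 42.4 FPKM in the TIC library against 85.0 FPKM in NTC, Snx11 2.36 FPKM in TIC versus 2.85 in NTC, and Skap1 was listed at 0 in both libraries. Next to HoxD, Mtx2 had 23.9 FPKM in the TIC library against 24.8 FPKM in NTC, and Evx2, the homeobox gene at the 5′ end of that cluster, was listed at 0 in both.

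Promoter windows (250 bases before to 50 after a gene's start) were available from RefSeq in build GRCm38.p6 for 22 of the 39 members, among them Hoxb4 with signal and its cluster mate Hoxb1, listed at 0. They are shown to set a member with signal beside 1 listed at 0 from the same cluster, on the plus strand at chr11:96318017-96318316 for Hoxb4 and chr11:96365508-96365807 for Hoxb1. Capitals mark a match to TGATNNAT, the letters of a joint Pbx and Hox site, searched on both strands.
Hoxb4: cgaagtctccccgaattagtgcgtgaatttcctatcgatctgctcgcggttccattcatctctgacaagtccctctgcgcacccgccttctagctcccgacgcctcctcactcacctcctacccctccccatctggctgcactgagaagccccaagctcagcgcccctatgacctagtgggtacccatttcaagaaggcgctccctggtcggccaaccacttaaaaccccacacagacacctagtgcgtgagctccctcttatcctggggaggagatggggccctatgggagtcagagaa
Hoxb1: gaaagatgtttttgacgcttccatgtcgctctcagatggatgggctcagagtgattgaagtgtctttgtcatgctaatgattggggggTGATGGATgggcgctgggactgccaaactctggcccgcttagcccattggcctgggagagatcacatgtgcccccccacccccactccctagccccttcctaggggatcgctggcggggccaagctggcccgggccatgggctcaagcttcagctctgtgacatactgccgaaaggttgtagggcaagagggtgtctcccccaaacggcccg

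The Hoxb1 window held 1 match to TGATNNAT and the Hoxb4 window 0. The windows of Hoxd1 and Hoxd8 held 0 as well, while that of Hoxb8, with 0.0308 FPKM in TIC, held 1. Such a match was present in 4 of 24 Hox windows (16.7%) and in 8.85% of 32851 windows of all genes. TGACAG, the letters of a Meis site, was found in none of the windows of Hoxb1, Hoxb4, Hoxd1 and Hoxd8, in 2 of 24 Hox windows (8.33%) and in 19.2% of all windows. Of members with signal, Hoxd1 had 29 CG pairs in its window, Hoxb4 14 and Hoxd8 6, while Hoxb8 had 13 and Hoxb1, listed at 0, had 10. The median was 14.5 over the 24 Hox windows and 7 over the windows of all genes. A match is a description of the letters and not of a bound site.

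Of the cofactors of the Hox proteins, Meis1 and Pbx3 were higher in TIC by 2-fold or more. Of 9 cofactor genes, 7 had a mean level of 1 FPKM or more, of which 2 were 2-fold or more higher in TIC and 0 as much lower, against 14.6% and 13.8% of all such genes. Meis1 had 12.9 FPKM in the TIC library against 1.10 FPKM in NTC (log2 ratio 2.72), and Pbx3 had 15.7 FPKM in TIC versus 3.45 in NTC (log2 ratio 1.91). The median log2 ratio of the 7 was 0.34.

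The other cofactors described here lay within 2-fold on this scale. Pknox2 had 2.45 FPKM in the TIC library against 0.903 FPKM in NTC (log2 ratio 0.86), and Pknox1 10.6 FPKM in TIC versus 8.18 in NTC. Lower in TIC were Pbx2, with 14.7 FPKM in TIC versus 19.2 in NTC, and Meis3, with 1.16 FPKM in TIC versus 3.05 in NTC (log2 ratio -0.91). Pbx4 had 0.0856 FPKM in the TIC library against 0.122 FPKM in NTC, and Meis2 was listed at 0 in both libraries. Of the homeobox genes Cdx1, Cdx2, Cdx4, Evx1 and Evx2, which act before or beside the Hox genes in the embryo, only Cdx4 had a value, listed at 0 in TIC and 0.0605 FPKM in NTC.

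Retinoic acid genes with the higher level in TIC and with the lower level in TIC were equal in number at 2-fold. Of 16 genes, 11 had a mean level of 1 FPKM or more, of which 3 were higher in TIC by 2-fold or more and 3 lower by as much, where 14.6% and 13.8% of all genes with such a mean were. The median log2 ratio of the 11 was -0.05. Aldh1a1, an enzyme that makes retinoic acid, had 81.2 FPKM in the TIC library against 0.953 FPKM in NTC (log2 ratio 5.39). Cyp26b1, which breaks retinoic acid down, had 22.1 FPKM in TIC versus 0.981 in NTC (log2 ratio 3.54). Cyp26a1 of the same breakdown had 1.72 FPKM in the TIC library against 0.0691 FPKM in NTC. The production gene Aldh1a1 and these breakdown genes thus had their higher level in TIC. Aldh1a3, of the same family as Aldh1a1, was high in both libraries, with 42.8 FPKM in TIC versus 32.8 in NTC (log2 ratio 0.38).

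Lower in TIC were Crabp2, which carries retinoic acid to its receptor, with 4.06 FPKM in TIC versus 151.7 in NTC (log2 ratio -4.92), and Stra6, the retinol uptake receptor, with 2.41 FPKM in TIC versus 48.4 in NTC (log2 ratio -3.86). The receptor gene Rara had 9.42 FPKM in the TIC library against 24.0 FPKM in NTC (log2 ratio -1.26), while Rarg had 20.3 FPKM in TIC versus 21.5 in NTC. Rarb, itself a target of retinoic acid, was low, with 0.835 FPKM in the TIC library against 0.795 FPKM in NTC.

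**Figure D4:**
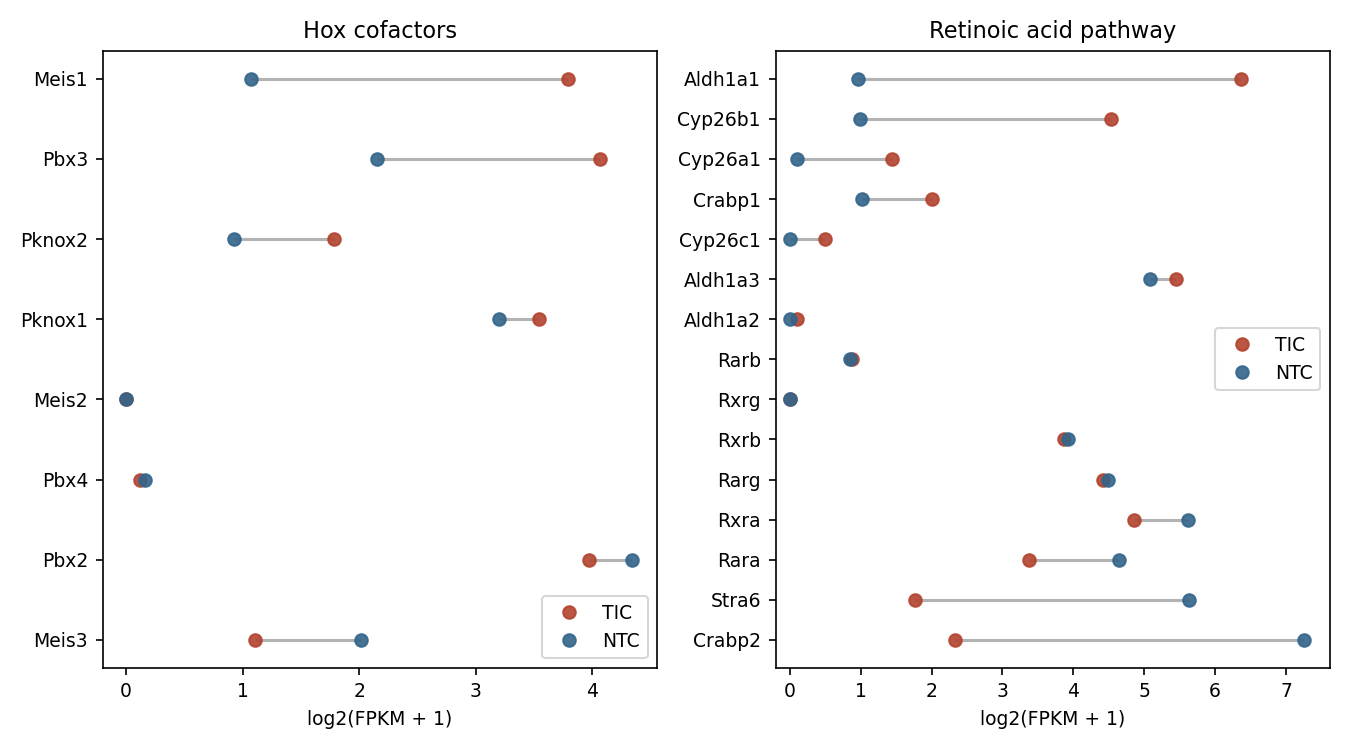
Levels as log2(FPKM + 1) of cofactor genes (left) and retinoic acid genes (right) in TIC and NTC, joined by a line and ordered by the log2 ratio of TIC to NTC. Meis1 and Pbx3 lie higher in TIC and Meis3 lower, while Aldh1a1 and Crabp2 differ most among the retinoic acid genes, in opposite directions.

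Polycomb and Trithorax proteins keep Hox clusters silent or active through histone marks. Of 23 such genes found, each with a mean level of 1 FPKM or more, 3 were higher in TIC by 2-fold or more and 1 lower by as much, where 14.6% and 13.8% of all genes with such a mean were. The count of higher genes was thus near the share over all genes, and the median log2 ratio was 0.02. The genes named next are those with the largest ratios in each direction. Rbbp5 of the Trithorax-type complexes had 54.8 FPKM in the TIC library against 12.8 FPKM in NTC, and the Polycomb proteins Cbx8 and Cbx6 had 6.64 FPKM in TIC versus 1.67 in NTC and 18.2 FPKM in TIC versus 7.11 in NTC. Ring1, a Polycomb ubiquitin ligase, had 8.92 FPKM in the TIC library against 30.4 FPKM in NTC. Ezh2, which writes the Polycomb mark, had 15.2 FPKM in the TIC library against 25.8 FPKM in NTC, and its partner Suz12 had 17.7 FPKM in TIC versus 29.7 in NTC. Geminin (Gmnn), which also binds Hox proteins, had 6.78 FPKM in the TIC library against 18.8 FPKM in NTC.

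Markers of mammary layers differed between the libraries. All 8 basal markers were higher in TIC by 2-fold or more, summing to 3727 FPKM in TIC versus 32.8 in NTC. All 8 luminal markers were lower by 2-fold or more, summing to 48.3 FPKM in the TIC library against 2937 FPKM in NTC. Of all genes with a mean of 1 FPKM or more, 14.6% were higher and 13.8% lower by as much. The NTC level was 3.61% of the TIC level for Hoxb3, 6.35% for Hoxb2 and 12.2% for Hoxb4. For the 8 basal markers it ran from 0.209% (Myh11) to 17.98% (Oxtr) with a median of 0.630%. Of these markers, 6 lay between 0.209% and 0.773%, below these 3 Hox genes. Krt14 (11.9%) and Oxtr lay above Hoxb3 and Hoxb2, and of all 8 only Oxtr lay above Hoxb4. Hoxd1 and Hoxd8, which also had signal in TIC, were listed at 0 in NTC and have no such percentage, so the comparison leaves them out. The value of Hoxb4 rests on about 24.0 fragments in NTC, so its order beside Krt14 and Oxtr is uncertain.

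The 9 fibroblast markers summed to 173.8 FPKM in the TIC library against 2.44 FPKM in NTC, of which Dcn had 151.8 FPKM in the TIC library against 1.51 FPKM in NTC. Others of that list were Col1a2 (9.56 FPKM in TIC versus 0.0119 in NTC), Pdgfra (8.83 FPKM in TIC versus 0.513 in NTC), Pdgfrb (2.44 FPKM in TIC versus 0.0701 in NTC) and Col1a1 (0.459 FPKM in TIC versus 0.339 in NTC). Lum had 0.573 FPKM and Col3a1 0.221 FPKM in TIC, both listed at 0 in NTC, and Fap and Dpt were listed at 0 in both. The 7 endothelial markers summed to 3.08 FPKM in the TIC library against 1.01 FPKM in NTC, with Cldn5 listed at 0 in both. The part of the basal, luminal, fibroblast and endothelial markers in the Hox levels was not tested.

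Markers of other cells were low in both libraries, except Sox10. The 8 leukocyte markers summed to 2.44 FPKM in the TIC library against 2.23 FPKM in NTC, with Ptprc, Cd3e and Emr1 among those listed at 0 in both. The 5 adipocyte markers summed to 0.131 FPKM in the TIC library against 0.0798 FPKM in NTC, and the 5 skeletal muscle markers to 0.117 FPKM in TIC versus 0.844 in NTC. Of the 4 neural crest or Schwann cell markers, Sox10 had 345.8 FPKM in the TIC library against 288.1 FPKM in NTC, whereas S100b had 0.274 FPKM in TIC versus 0.378 in NTC.

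The reading of the HoxB levels, and of Hoxd8, is limited by overlapping transcripts. In GENCODE M21 the antisense gene Hoxb3os overlaps Hoxb3 and Hoxb2 on the other strand, and Hoxb3os is not named in the deposited tables. No source used here says that strand was used in counting, so reads of Hoxb3os and of Hoxb3 or Hoxb2 cannot be told apart. The same limit holds for Hoxd8 where the gene on its other strand, listed as 1700109F18Rik, overlaps it.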

How the data were processed

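RNA sequencing of 2 libraries, TIC and NTC, was used, grouped by the sample descriptions. Per the labels' protocols, the libraries were made from cDNA amplified out of a small amount of RNA, which can alter the share of reads a gene gets. The values are FPKM per gene, deposited by the authors. Of tools, CASAVA 1.8.2, TopHat 1.4.0, Cufflinks and Cuffdiff are named in the submitters' processing notes, with build mm9 and no roles. The locus heading gives hg19, yet mouse loci stand below it, so positions are printed as mm9, with 1 added to each start.

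Members were matched by symbol. Log2 ratios of TIC to NTC were taken after adding 1 FPKM to both, and counts at 2-fold used genes whose mean level reached 1 FPKM. With 1 library per group no test was made. Depth came from receptor genes of smell (olfactory and vomeronasal) whose locus is under 1.5 kb, taking the median FPKM × kb between 0.035 and 0.065 as 1 read (0.0476 in TIC from 23 genes, 0.0463 in NTC from 39). Fragments per member used the longest coding transcript of GENCODE M21, which for Hoxd8 is longer than its deposited locus. Intervals at 95% are exact Poisson for fragments and exact binomial (Clopper-Pearson) for ratios, on whole fragments. Homeoboxes were found by translating transcripts. Calculations used Python 3.11.15, pandas 2.3.3 and scipy 1.17.1, and were tested on simulated data. There the worth of 1 read was recovered at depths that place it inside that range, but not at a greater depth that places it below, where a pair of reads was taken for 1.

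The members and gene lists were chosen with earlier results of these data known. The text takes, by rule, all members, the genes inside the clusters and beside them, and the 3 genes of each list with the largest ratio in each direction. Genes inside and beside the clusters are all counted, but only some are named, and no rule picked those. The other genes of lists that are named, such as Rarb, Rarg and Cyp26a1, were chosen after their values were seen. Some genes and sequences that these rules take are not reported here. Kmt2a was found under its older symbol Mll1. The alternatives were pseudocounts of 0.1 and 5 FPKM, other filters and levels, centring on the median gene, rescaling to equal sums and leaving out the highest member of a cluster.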

Additional observations from a re-analysis of the deposited data

How the results depend on the processing

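No paired analysis was possible because each group has 1 library. The count of members at least 2-fold higher in TIC was 3, between 2 and 4 under the alternatives run, except among genes averaging 5 FPKM or more, where it was 1 (Hoxb3). The count of members at least 2-fold lower was 0 throughout. The median log2 ratio of 2.52 was 3.72 with a pseudocount of 0.1 FPKM, 1.19 with 5 FPKM, 3.19 among genes averaging 5 FPKM or more and 2.69 centred on the median gene. With no filter it was 0.00, since most members are listed at 0. Members at 1 FPKM or more numbered 4 in TIC, and 2 reached 5 FPKM. Cofactors at least 2-fold different numbered 2, and 4 with a pseudocount of 0.1 FPKM. The HoxB ratio of 17.2 was 12.2 without Hoxb3 and, as an alternative added after the data were seen, 18.02 without Hoxb2. The HoxD ratio of 78.4, whose NTC sum is Hoxd9 alone, was 30.9 without Hoxd1, within its counting interval. The HoxA ratio is not reported here, and HoxC has none because NTC is listed at 0. The 6 members with a value above 0 that rest on fewer than 4 estimated fragments in each library show no difference detectable at this depth.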

Other observations

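Several members share 1 deposited locus with another symbol, namely Hoxa3 to Hoxa6, Hoxa11, Hoxc5, and Hoxd3 with Hoxd4. Of these 8 members, 5 (62.5%) were listed at 0 in both libraries, as were 22 of the 31 members with a locus of their own (71.0%). Over all genes, 25.1% of 3712 on a shared locus and 27.7% of 18846 on their own were listed at 0 in both. Inside the clusters lie 10 genes that are not members, of which 9 were listed at 0 in both libraries. Among these 9 are all 6 microRNA genes.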
